A study of Drosophila melanogaster with 18 samples.

Results

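The proteasome is the large protease of the cell that degrades proteins tagged with ubiquitin. Its barrel-shaped core is built of outer rings of alpha subunits, which gate the entry, and inner rings of beta subunits, some of which carry the proteolytic sites. A regulatory particle caps the core: its base holds a ring of Rpt ATPases, which unfold the substrate, and the Rpn1, Rpn2, Rpn10 and Rpn13 subunits, and its lid is made of further Rpn subunits, among them the deubiquitinase Rpn11. *Drosophila melanogaster* also has paralogues of many subunits, several of which are known from the testis.

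All probes were collected whose gene had a symbol made of Prosalpha, Prosbeta, Rpn or Rpt and a number. This rule found 48 genes with 69 probes, of 32162 probes on the array, 19488 of which had a symbol (13059 genes). The rule used no measured value. Symbols that end in T or R, with or without a further digit, were kept apart as paralogues (16 genes, 18 probes). The other 32 genes were the subunit genes proper, with 51 probes: 7 core alpha, 7 core beta, 10 base and 8 lid genes. They lie on 2L (4 genes), 2R (10), 3L (5), 3R (9) and X (4), per RefSeq. No sequence of these genes was analysed here.

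Transcript levels had been measured on 18 one-colour Agilent arrays, in 6 groups of 3 replicates. All groups were S2R+ cells, a *Drosophila* line of embryonic origin with features of haemocytes, the blood cells of the fly. The cells were given dsRNA of *His2Av* (H2Av RNAi), the gene of the fly's H2A.Z-type histone variant, or dsRNA of the bacterial *lacZ* gene as the control (lacZ RNAi), at 30 µg per dish and 24 h after seeding. After 4 days with the dsRNA, dishes were held for 24 h at a low (14 °C), a usual (25 °C) or a high (30 °C) temperature, and fewer cells had been seeded for the warmer cultures. The groups were thus H2Av RNAi at 14, 25 and 30 °C and lacZ RNAi at 14, 25 and 30 °C, all in the same cell line. The study describes the replicates as biological ones from repeated experiments, whereas the labels only number them. The p-values measure the spread between these samples. The comparisons ask how these genes differed between culture temperatures and whether they differed after depletion of *His2Av*.

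The *His2Av* probe was lower in H2Av RNAi than in lacZ RNAi at 14 °C (log2 change -3.14), at 25 °C (-3.07) and at 30 °C (-3.95). All 9 H2Av RNAi arrays lay between 11.61 and 13.82 log2 signal, below all 9 lacZ RNAi arrays, which lay between 15.04 and 16.41. All 9 haemocyte markers examined were detected. Of 9 spermatocyte and spermatid markers, 4 were above background in some group and 3 were above background on no array. The 3 arrays of a group shared a slide that held no other group, and the slide cannot be told apart from the group in any comparison. Germ cell markers, a list of another cell type, were all detected (7 of 7). At 14, 25 and 30 °C 1, 2 and 3 of them were higher in H2Av RNAi than in lacZ RNAi and 1, aub, was lower, and their summed log2 signal, in which aub weighs most, was 12.99 to 13.22 in H2Av RNAi and 13.56 to 14.09 in lacZ RNAi. Between 14 and 30 °C, 1 germ cell marker was higher and 4 were lower at 14 °C in each RNAi group. Of the 9 haemocyte markers, 1 was higher and 3 were lower at 14 °C in H2Av RNAi (median log2 change -0.41), and 0 were higher and 2 lower in lacZ RNAi (-0.51). Of 3 neuron markers, 1 was lower at 14 °C in H2Av RNAi and 2 in lacZ RNAi. The part of these markers in the results was not tested. Replicate 1 of lacZ RNAi at 25 °C stood apart from the rest of its group. There the subunit genes were a median of 0.32 log2 units above replicates 2 and 3, against 0.05 over all probes, and the median SD of the subunit genes was 0.30 in this group, against 0.09 to 0.14 in the other groups. Results that involve lacZ RNAi at 25 °C are therefore also given without this array.

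All 51 probes of the subunit genes were well above background on all 18 arrays. Each gene was read from its lead probe, the brightest of its probes, and 18 genes had further probes. Mean signals of the lead probes were high for this array, between 13.38 (Prosbeta3) and 17.67 (Prosalpha1) on the log2 scale, and their median lay at the 98.1 percentile of all probes on the array. Signals of different probes depend on the probe and are not compared as levels.

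Read from their lead probes, the subunit genes as a group were lowest at 30 °C. The mean signal of the lead probe was lowest at 30 °C for 28 of 32 genes in H2Av RNAi (87.5%) and for 28 of 32 in lacZ RNAi (87.5%), and for 26 genes in both (81.2%). Over the lead probes of all 9895 named genes kept for the tests (well above background on 2 or more arrays in 1 or more groups), these shares were 39.2%, 38.8% and 28.1%. Among the 2434 named genes within the same range of mean signals they were 41.7%, 40.7% and 29.9%. For the 19 further probes of the subunit genes they were 52.6%, 42.1% and 42.1%. Without lacZ RNAi 25 °C replicate 1, the counts of lead probes were 28 in H2Av RNAi, 26 in lacZ RNAi and 24 in both. The 6 exceptions were Prosalpha2 and Prosalpha7, which were lowest at 14 °C in lacZ RNAi, Prosbeta1 and Rpn1, which were lowest at 14 °C in H2Av RNAi, and Rpn7 and Rpt3, which were lowest at 30 °C in neither.

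**Figure D1:**
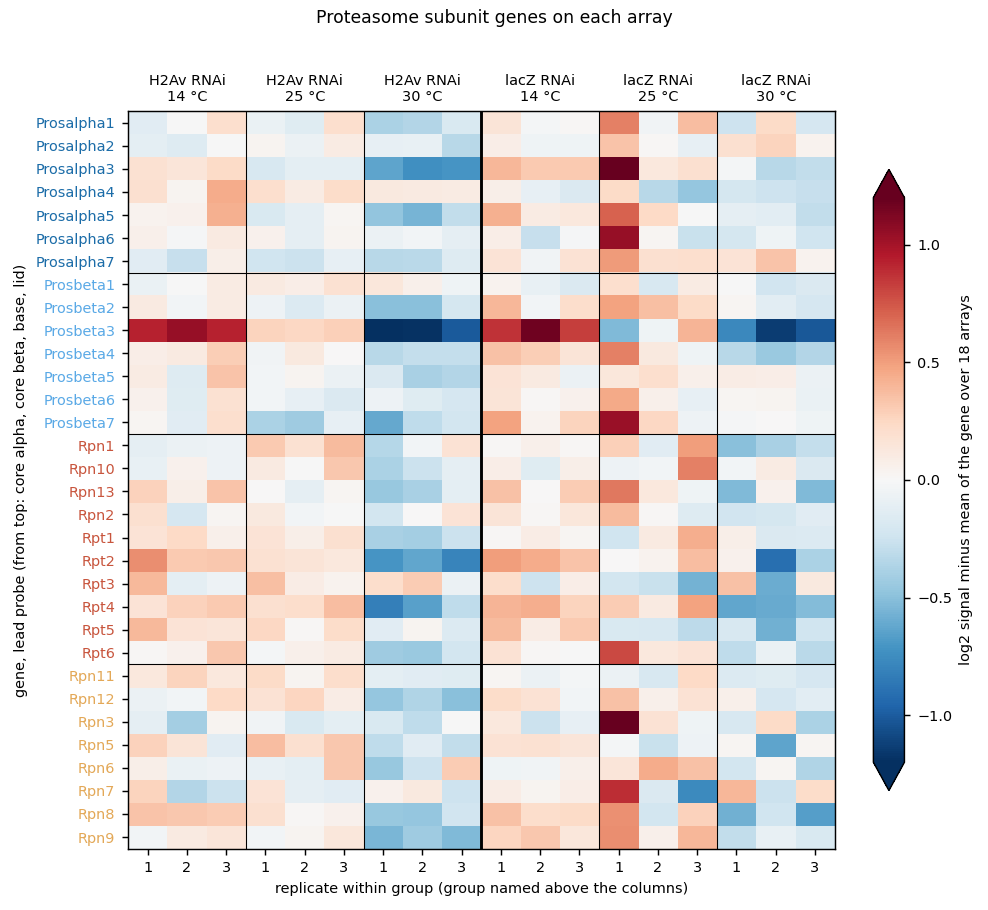
Log2 signal of the lead probe of each of the 32 subunit genes on each of the 18 arrays, given as the difference from the mean of that gene over all arrays (colour scale, saturated beyond ±1.2). Columns are the replicates of the 6 groups and rows are ordered by core alpha, core beta, base and lid. The columns at 30 °C are mostly blue, Prosbeta3 has the widest range, and lacZ RNAi 25 °C replicate 1 is the reddest column.

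The arrays showed this one by one. On the 3 arrays of H2Av RNAi at 30 °C, 4, 6 and 4 of the 32 genes lay above their own mean over all arrays, and the median gene lay 0.36, 0.31 and 0.21 log2 units below it. On the 3 arrays of lacZ RNAi at 30 °C, 11, 10 and 5 genes lay above their mean. On each of the 12 arrays at 14 and 25 °C, 16 to 31 genes did. The 30 °C arrays of both RNAi groups thus lay below all others in this count. In total RNA of a culture, a change in the cells' make-up and a change in the RNA per cell cannot be told apart, and levels are relative to the other transcripts on the array. The genes also varied together. The median pairwise correlation of the 32 lead probes over the 18 arrays was 0.418, against 0.025 over 9889 named genes, and 0.372 against 0.019 without lacZ RNAi 25 °C replicate 1. After each group's mean was taken off it was 0.234 against 0.080, and without that array 0.122 against 0.088. These values are descriptive, since the genes share arrays, slides and groups.

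The widest temperature difference was that between 14 and 30 °C, and the 2 RNAi groups share no array in it. A gene passed the test when limma's adjusted p was under 0.05 over all 21775 probes tested. In H2Av RNAi, 14 of the 32 subunit genes (43.8%) were higher at 14 than at 30 °C and 0 were lower, whereas 18.2% of all probes were higher and 20.2% were lower. In lacZ RNAi, 8 (25%) were higher and 0 were lower, against 15.3% and 16.6% of all probes. Among the 2434 named genes in the same range of mean signals, 17.8% were higher at 14 °C in H2Av RNAi and 17.9% in lacZ RNAi. The median log2 change of the subunit genes, 14 minus 30 °C, was 0.34 in H2Av RNAi and 0.25 in lacZ RNAi, and the medians over all probes were -0.03 and -0.01. The change was positive for 28 and 29 of the 32 genes. Most changes were modest: 2 genes in H2Av RNAi and 1 in lacZ RNAi also reached 2-fold, against 11.6% and 9.43% of all probes. Genes past the test in both RNAi groups numbered 7 (Prosbeta3, Prosbeta4, Rpn13, Rpn8, Rpn9, Rpt2 and Rpt4), which is 50% of the H2Av RNAi list and 87.5% of the lacZ RNAi list. The same overlap over all probes was not examined, so these shares do not set the subunit genes apart. With the replicate number as a block, Rpn13 was lost from both lists, and with the block nested in the RNAi groups, an alternative chosen after seeing the data, Rpn9 was also lost in lacZ RNAi (limma adjusted p = 0.056). The count in H2Av RNAi was 7 without its 14 °C replicate 3 or its 30 °C replicate 2, and 9 without its 30 °C replicate 1.

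**Figure D2:**
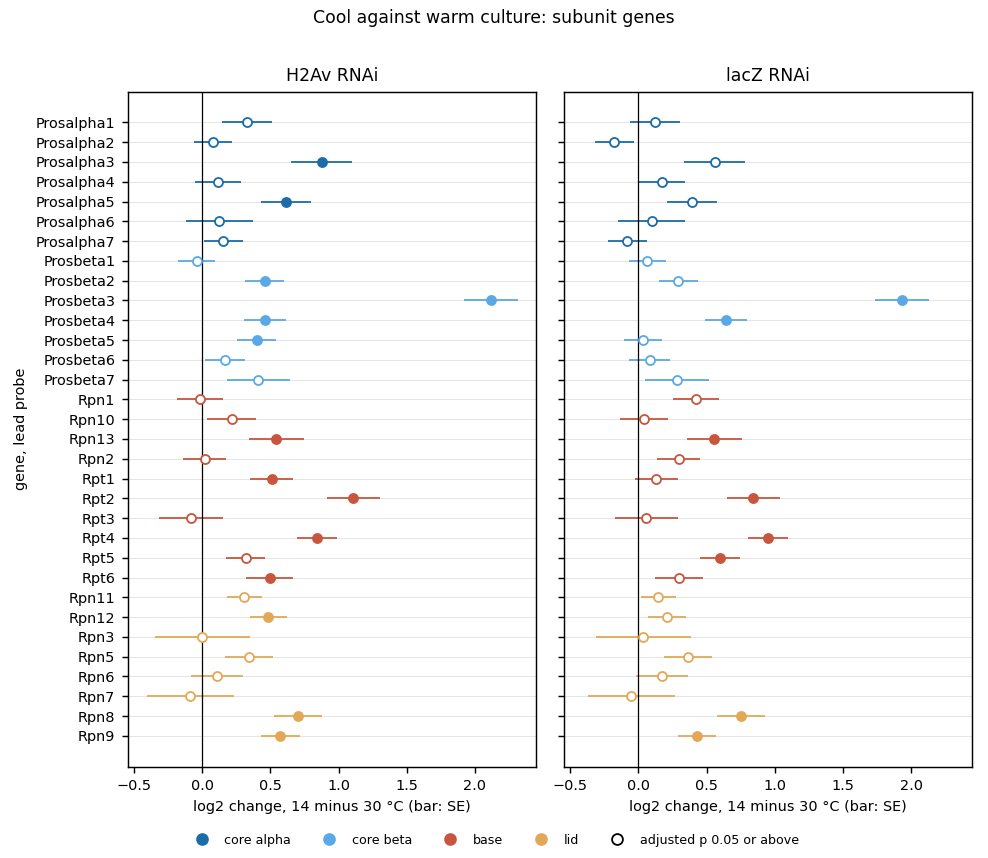
Log2 change of the lead probe, 14 minus 30 °C, of the 32 subunit genes in H2Av RNAi (left) and lacZ RNAi (right), with bars of 1 SE from the fit over all arrays. Filled points passed the test at an adjusted p under 0.05. In both panels all filled points lie to the right of 0, with Prosbeta3 farthest out at 2.12 in H2Av RNAi and 1.93 in lacZ RNAi.

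Among the core genes, Prosbeta3, which encodes a beta subunit without a proteolytic site, changed most. In H2Av RNAi the arrays read 14.31, 14.42 and 14.30 at 14 °C, 13.65, 13.63 and 13.66 at 25 °C, and then 12.11, 12.20 and 12.38 at 30 °C. The lacZ RNAi arrays read 14.25, 14.55 and 14.21 at 14 °C, 12.85, 13.33 and 13.79 at 25 °C, and then 12.61, 12.24 and 12.37 at 30 °C. The signals were ordered by temperature in both RNAi groups, with no overlap between the arrays of different temperatures. Prosbeta3 was 4.33-fold higher at 14 than at 30 °C in H2Av RNAi (log2 change 2.12 ± 0.20 SE, n = 3 arrays per group, limma adjusted p = 2.93e-06) and 3.82-fold higher in lacZ RNAi (1.93 ± 0.20, limma adjusted p = 7.82e-06). It was also the gene for which all pairs of temperatures passed in both RNAi groups. The change between 14 and 25 °C was 0.70 in H2Av RNAi (limma adjusted p = 0.0306) and 1.01 in lacZ RNAi (limma adjusted p = 0.00274), and that between 30 and 25 °C was -1.42 (limma adjusted p = 0.000584) and -0.92 (limma adjusted p = 0.00832). Prosbeta3 had no further probe on the array. CG11980, which overlaps Prosbeta3 in the RefSeq annotation, changed by 0.53 in H2Av RNAi (limma adjusted p = 0.031) and by 0.17 in lacZ RNAi (limma adjusted p = 0.524) between 14 and 30 °C, and whether the Prosbeta3 probe reads its transcripts was not tested.

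The other core genes moved less. Prosalpha3, whose yeast counterpart has the tail that closes the gate of the core, gave 16.38, 16.34 and 16.43 at 14 °C, 16.00, 16.08 and 16.08 at 25 °C, and then 15.57, 15.46 and 15.49 at 30 °C in H2Av RNAi. The arrays of the 3 temperatures did not overlap, and the gene was higher at 14 than at 30 °C (log2 change 0.88 ± 0.22 SE, limma adjusted p = 0.0068). In lacZ RNAi the same difference was 0.56 and did not pass (limma adjusted p = 0.0708), although the arrays at 14 °C (16.60, 16.52 and 16.51) lay above those at 30 °C (16.18, 15.86 and 15.91). The second Prosalpha3 probe changed in the same way, by 0.78 in H2Av RNAi (limma adjusted p = 0.00799) and by 0.47 in lacZ RNAi (limma adjusted p = 0.0935). Prosalpha5 (0.61), Prosbeta2 (0.46), Prosbeta4 (0.46) and Prosbeta5 (0.40) passed in H2Av RNAi, and of these Prosbeta4 (0.64) also passed in lacZ RNAi. Prosbeta2 and Prosbeta5 carry proteolytic sites, and Prosbeta1, the other such subunit, changed by -0.04 in H2Av RNAi and by 0.06 in lacZ RNAi and passed in neither. In all, 2 of 7 alpha and 4 of 7 beta genes were higher at 14 °C in H2Av RNAi, and 0 of 7 and 2 of 7 in lacZ RNAi.

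In the base, the ATPase genes Rpt2 and Rpt4 stood out. Rpt2 gave 14.42, 14.17 and 14.18 at 14 °C, 14.04, 14.02 and 13.98 at 25 °C, and then 13.15, 13.23 and 13.06 at 30 °C in H2Av RNAi. In lacZ RNAi the arrays read 14.36, 14.30 and 14.20 at 14 °C, 13.87, 13.90 and 14.23 at 25 °C, and then 13.91, 12.95 and 13.48 at 30 °C. The 14 and 30 °C arrays did not overlap in either RNAi group, and those at 30 °C in lacZ RNAi were widely spread. Rpt2 was 2.15-fold higher at 14 than at 30 °C in H2Av RNAi (log2 change 1.11 ± 0.20 SE, limma adjusted p = 0.000528) and 1.79-fold higher in lacZ RNAi (0.84 ± 0.20, limma adjusted p = 0.00438). Its overlapping neighbour CG31142 changed by 0.45 and -0.49 and passed in neither.

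Rpt4 was alike at 14 and 25 °C and lower at 30 °C. In H2Av RNAi the arrays read 15.74, 15.85 and 15.89 at 14 °C, 15.77, 15.79 and 15.95 at 25 °C, and then 14.76, 14.93 and 15.27 at 30 °C. The lacZ RNAi arrays read 15.99, 16.01 and 15.84 at 14 °C, 15.88, 15.68 and 16.06 at 25 °C, and then 14.95, 14.98 and 15.06 at 30 °C. The arrays at 14 and 25 °C overlapped and all lay above those at 30 °C. Rpt4 was higher at 14 than at 30 °C by 0.84 in H2Av RNAi (limma adjusted p = 0.000541) and by 0.95 in lacZ RNAi (limma adjusted p = 0.000265). Its second probe changed in the same direction, by 0.41 and 0.49, without passing (limma adjusted p = 0.0964 and 0.0572).

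Of the further base genes, the ubiquitin receptor gene Rpn13 passed in both RNAi groups (0.54 and 0.56), as did its second probe (0.66 and 0.61). With the replicate number as a block, the lead probe passed in neither RNAi group (limma adjusted p = 0.0588 in H2Av RNAi and 0.0613 in lacZ RNAi), and its call was lost in 12 and 14 of the 18 fits that left out 1 array. In lacZ RNAi the Rpn13 arrays overlapped, since replicate 2 at 30 °C (15.44) lay above replicate 2 at 14 °C (15.38). The ATPase genes Rpt1 (0.51) and Rpt6 (0.50) passed in H2Av RNAi, where Rpt5 gave 0.32 without passing. Rpt5 (0.60) passed in lacZ RNAi, where Rpt1 gave 0.13 and Rpt6 0.30 without passing. The difference between the RNAi groups did not pass for any of these 3 genes. The scaffold gene Rpn2 changed by 0.02 and 0.30 and Rpn1 by -0.01 and 0.42. Rpn10, another ubiquitin receptor gene, changed by 0.22 and 0.04, and none of these passed.

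In the lid, Rpn8 and Rpn9 were higher at 14 than at 30 °C in both RNAi groups. Rpn9, which encodes a scaffold subunit, gave 15.97, 16.11 and 16.16 at 14 °C, 15.98, 16.04 and 16.14 at 25 °C, and then 15.46, 15.58 and 15.48 at 30 °C in H2Av RNAi. In lacZ RNAi it gave 16.26, 16.34 and 16.15 at 14 °C, 16.56, 16.07 and 16.41 at 25 °C, and then 15.71, 15.92 and 15.83 at 30 °C. As with Rpt4, the arrays at 14 and 25 °C overlapped and those at 30 °C lay below. The changes were 0.57 ± 0.14 SE in H2Av RNAi (limma adjusted p = 0.00528) and 0.43 ± 0.14 in lacZ RNAi (limma adjusted p = 0.0312). Read as the mean over its probes, Rpn9 passed in H2Av RNAi and not in lacZ RNAi. CG10365, which overlaps Rpn9 in the annotation, was lower at 14 than at 30 °C (-0.87 in H2Av RNAi and -1.02 in lacZ RNAi, limma adjusted p = 0.00752 and 0.00338). Rpn8, the partner of the deubiquitinase Rpn11 in the lid, changed by 0.70 (limma adjusted p = 0.00633) and 0.75 (limma adjusted p = 0.00502). Rpn12 passed in H2Av RNAi (0.49), where Rpn11 did not (0.31, limma adjusted p = 0.0724). Rpn3, Rpn6 and Rpn7 changed by 0.00, 0.11 and -0.09 in H2Av RNAi and by 0.04, 0.17 and -0.05 in lacZ RNAi.

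**Figure D3:**
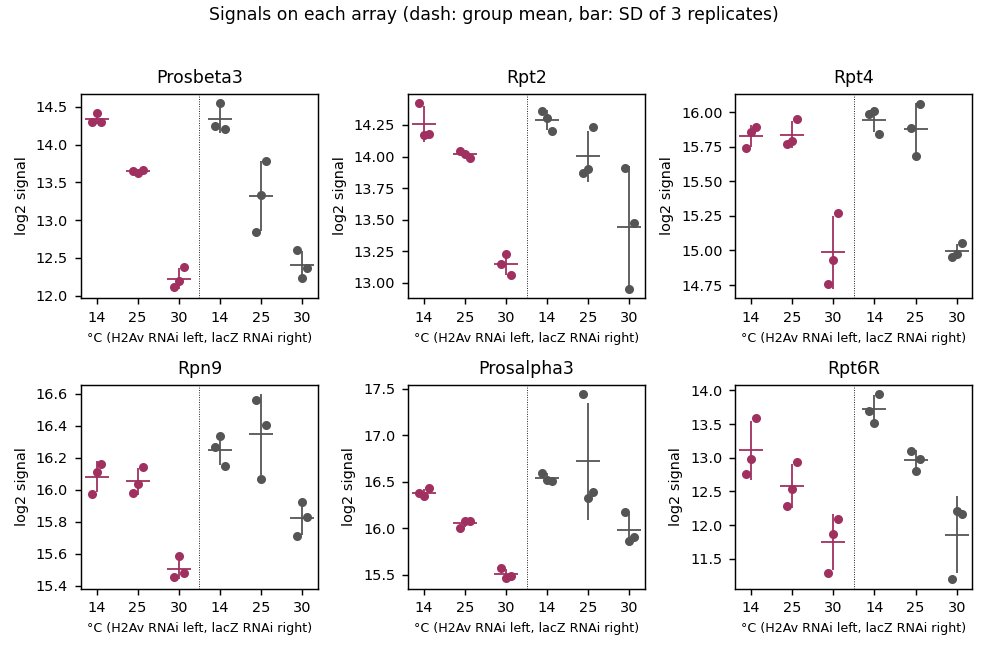
Log2 signal on each array (points) of 5 subunit genes and the paralogue Rpt6R, by temperature in °C, with H2Av RNAi at the left and lacZ RNAi at the right of each panel. Dashes are group means and bars the SD of 3 replicates. In every panel the lowest group mean of each RNAi group is at 30 °C. The group means of Prosbeta3, Rpt2 and Rpt6R are ordered by temperature in both RNAi groups. Rpt4 and Rpn9 have overlapping arrays at 14 and 25 °C in both RNAi groups.

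By the medians over the 32 genes, 30 °C stood farther from 25 °C than 14 °C did, as follows. In H2Av RNAi, 5 subunit genes fell at 30 relative to 25 °C and 0 rose, against 6.26% and 5.75% of all probes. These were Prosbeta3 (-1.42), Rpt2 (-0.87), Rpt4 (-0.85), Rpn12 (-0.62) and Rpn9 (-0.55). Prosbeta3 also reached 2-fold, as did 3.39% of all probes in this direction. The median over the 32 genes was -0.30 and the change was negative for 31 of them. Leaving out lacZ RNAi 25 °C replicate 1 gave 10 genes, and leaving out H2Av RNAi 25 °C replicate 2 gave 3. Falls numbered 9 in lacZ RNAi (28.1%) and rises 0, against 8.58% and 6.64% of all probes. Over the lead probes of all named genes these shares were 11% and 4.44%. The 4 largest falls were those of Prosbeta3 (-0.92), Rpt4 (-0.88), Prosalpha3 (-0.74) and Rpn8 (-0.69). None of the 9 reached 2-fold, which 4.34% of all probes did in this direction. The median was -0.41 and the change was negative for 29 genes. Without replicate 1 of lacZ RNAi at 25 °C, however, 3 genes (Prosbeta3, Prosbeta4 and Rpt4) passed, the median was -0.22, and 6.88% of all probes were lower. Prosbeta3 then reached 2-fold (-1.15). Without lacZ RNAi 30 °C replicate 1 the count was 3 and without replicate 3 it was 2.

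Between 14 and 25 °C few genes passed. In H2Av RNAi Prosbeta3 alone of the 32 was higher at 14 °C, against 6.24% of all probes, and 7.07% were lower. The change was under 2-fold, which 3.87% of all probes reached in this direction. This call was lost when the replicate number was used as a block within each RNAi group, an alternative chosen after the arrays had been compared, and when any of the 6 arrays at these temperatures was left out. In lacZ RNAi, Prosbeta3 (1.01) and the ATPase gene Rpt5 (0.49, limma adjusted p = 0.0286) were higher at 14 °C and 0 genes were lower, against 9.03% and 12.6% of all probes. Rpt5 gave 15.98, 15.69 and 15.92 at 14 °C, 15.42, 15.41 and 15.29 at 25 °C, and then 15.41, 15.02 and 15.37 at 30 °C in lacZ RNAi. Its arrays at 14 °C lay above all the others of lacZ RNAi. Prosbeta3 alone reached 2-fold, against 5.49% of all probes. Without lacZ RNAi 25 °C replicate 1 its change was 0.78, under 2-fold. Both calls held without lacZ RNAi 25 °C replicate 1, and 1 call was left without lacZ RNAi 14 °C replicate 1 or 3 or 25 °C replicate 3. The medians over the 32 genes were 0.04 in H2Av RNAi and -0.07 in lacZ RNAi, and at 25 °C the mean was the highest of the 3 temperatures for 11 genes in H2Av RNAi and for 20 in lacZ RNAi. Without lacZ RNAi 25 °C replicate 1 the lacZ RNAi median was 0.07, of the opposite sign, and the mean was highest at 25 °C for 12 genes and at 14 °C for 18, against 10 at 14 °C with all arrays.

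Depletion of *His2Av* was compared with the control at each temperature. At 14 °C, 0 of the 32 subunit genes passed limma's test, and 0 had an unadjusted p under 0.05, whereas 7.21% of all probes passed. The log2 changes, H2Av RNAi minus lacZ RNAi, lay between -0.24 and 0.29, and all 95% confidence intervals lay within -0.86 (Rpn7) and 0.66 (Rpn3). At 30 °C, 0 genes passed as well, 5 had an unadjusted p under 0.05, and 12.2% of all probes passed. Here the changes lay between -0.47 and 0.35, with intervals within -0.95 (Prosalpha3) and 0.71 (Prosalpha4). At 30 °C, array quality weights gave 9 genes, 6 other settings gave 1 each, and 1 and 2 passed without lacZ RNAi 30 °C replicate 2 and without lacZ RNAi 25 °C replicate 1.

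At 25 °C, 4 core genes (12.5% of the 32 genes) were lower in H2Av RNAi than in lacZ RNAi, against 15.9% of all probes, and 0 were higher, against 11.2%. Over the lead probes of all named genes, 22.7% were lower and 9.59% higher. None reached 2-fold, which 7.72% of all probes did in this direction. Prosalpha7 gave 15.86, 15.84 and 16.00 in H2Av RNAi and 16.60, 16.29 and 16.30 in lacZ RNAi (log2 change -0.50 ± 0.14 SE, limma adjusted p = 0.0212). Prosbeta2 gave 15.62, 15.52 and 15.61 in H2Av RNAi and 16.16, 16.05 and 15.91 in lacZ RNAi (-0.46 ± 0.14, limma adjusted p = 0.03). In both genes the groups did not overlap. Prosalpha3 gave 16.00, 16.08 and 16.08 in H2Av RNAi and 17.45, 16.33 and 16.39 in lacZ RNAi (-0.67, limma adjusted p = 0.0401). Prosbeta7 gave 16.22, 16.18 and 16.50 in H2Av RNAi and 17.64, 16.86 and 16.55 in lacZ RNAi (-0.71, limma adjusted p = 0.0352). The groups did not overlap in these genes either, and lacZ RNAi replicate 1 was far above the other arrays of its group.

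With each array scaled to its 75th percentile in place of quantile normalization, which moved the median of all probes by 0.43 in this comparison, none of these 4 genes passed and 1 subunit gene was higher. In a fit on these 2 groups alone, 0 passed. None of these 4 calls held without lacZ RNAi 25 °C replicate 1 (limma adjusted p 0.0715 to 0.139). Prosalpha4 then passed instead, in the other direction (0.57, limma adjusted p = 0.0123), as 1 of 32 genes (3.12%) against 17.9% of all probes. The median over the 32 genes was -0.09 with and -0.04 without the array. Without either replicate 1 or replicate 2 of H2Av RNAi at 25 °C, 0 genes passed, without its replicate 3, 2 did, and without lacZ RNAi 25 °C replicate 3 or 30 °C replicate 2, 7 did. Read from the lead probes, no base or lid gene of the 32 passed at 25 °C with all arrays. Further probes of Rpn1 and Rpn6, and the lid gene Sem1 outside the 32, did pass, as given below. The largest change, that of the lid gene Rpn3 (-0.74, limma adjusted p = 0.124), had 17.88 on lacZ RNAi replicate 1 and 16.28 and 16.07 on the others.

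**Figure D4:**
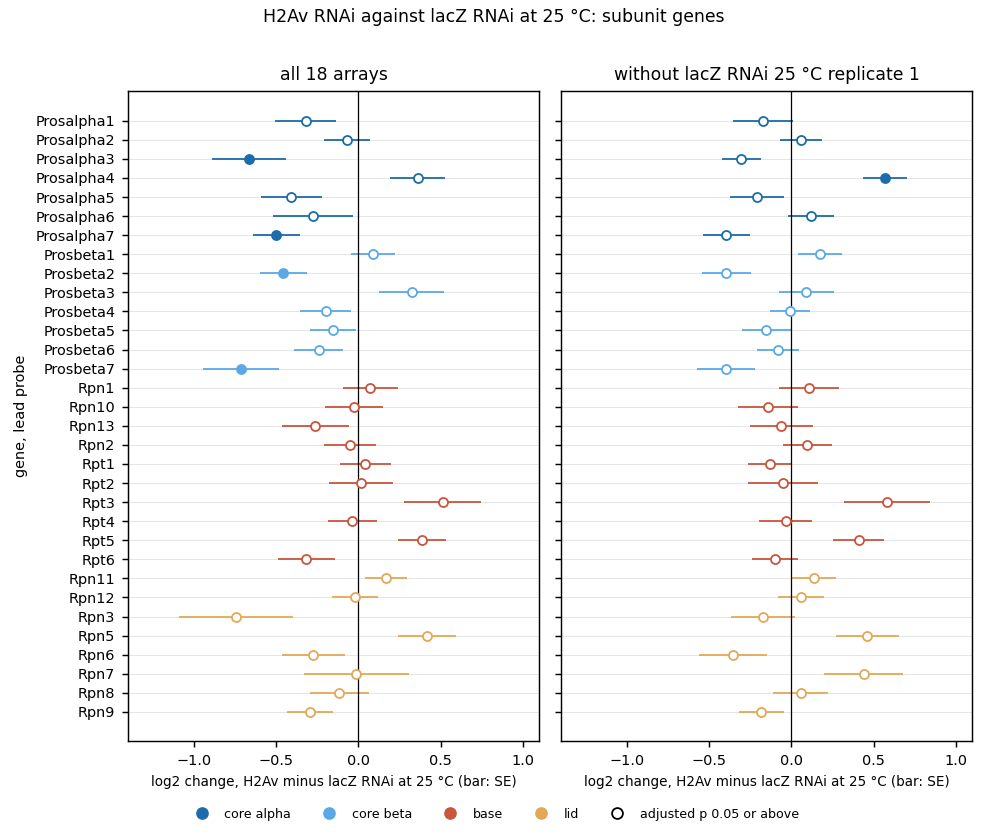
Log2 change of the lead probe, H2Av RNAi minus lacZ RNAi at 25 °C, of the 32 subunit genes with all 18 arrays (left) and without lacZ RNAi 25 °C replicate 1 (right), with bars of 1 SE. Filled points passed the test at an adjusted p under 0.05. The 4 filled points at the left (Prosalpha3, Prosalpha7, Prosbeta2 and Prosbeta7, all below 0) are open at the right, where Prosalpha4 at 0.57 is the filled point.

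The interaction is the change in H2Av RNAi less the change in lacZ RNAi, both 14 minus 30 °C, and asked whether depletion altered the temperature difference. It passed for 0 of 32 genes by limma (0 at an unadjusted p under 0.05) and for 0.409% of all probes. The fitted differences lay between -0.44 (Rpn1) and 0.38 (Rpt1), and for Prosbeta3 it was 0.18 ± 0.28 SE. The 95% intervals had a median half-width of 0.52 log2 units and reached from -1.09 to 1.02 for Rpn3. These intervals are not adjusted for the number of probes, and the test is stricter. Of the 89 probes past it, 87 changed at least 2-fold, so differences larger than the half-width could also have gone undetected.

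Further probes of the same genes did not always follow the lead probe. The 18 genes with several probes had 19 probes beside the lead. For these the mean was lowest at 30 °C for 10 in H2Av RNAi (52.6%) and for 8 in lacZ RNAi (42.1%), closer to the shares over all named genes than to those of the lead probes. Between 14 and 30 °C, 10 of 19 had the sign of their lead probe in H2Av RNAi and 12 of 19 in lacZ RNAi. In each RNAi group 4 of the 19 (21.1%) were higher at 14 °C, against 18.2% of all probes in H2Av RNAi and 15.3% in lacZ RNAi. None was lower, against 20.2% and 16.6%, and the medians over the 19 were 0.02 and 0.09. Those past the test were Prosalpha4 (0.73 and 0.82), Rpt3 (0.73 and 0.74), Rpn13 and, in H2Av RNAi, Prosalpha3, and in lacZ RNAi, Rpn2 (0.63). The further probe of Rpt1 went the other way from its lead probe, with -0.39 in H2Av RNAi and -0.52 in lacZ RNAi, and did not pass. Some calls between 14 and 30 °C were lost with the mean over the probes of a gene. These were Prosbeta2, Rpn12, Rpn13 and Rpt1 in H2Av RNAi and Rpn9 in lacZ RNAi. At 25 °C, further probes of Rpn1 (0.92, limma adjusted p = 0.00953), Prosalpha4 (0.80, limma adjusted p = 0.0013) and Rpn6 (0.75, limma adjusted p = 0.0316) were higher in H2Av RNAi than in lacZ RNAi, where their lead probes changed by 0.07, 0.36 and -0.27 without passing. The further probe of Prosalpha3 was lower, like its lead probe (-0.62, limma adjusted p = 0.0361). Of the 19, 15.8% were thus higher and 5.26% lower, against 11.2% and 15.9% of all probes. Without lacZ RNAi 25 °C replicate 1 those of Rpn1 (0.88, limma adjusted p = 0.0306) and Prosalpha4 (0.77, limma adjusted p = 0.00417) still passed, and those of Rpn6 (0.64, limma adjusted p = 0.108) and Prosalpha3 (-0.31, limma adjusted p = 0.097) did not. Which transcript forms the probes read was not tested.

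The further probe of Prosalpha4 was the one that differed between H2Av RNAi and lacZ RNAi at more than 1 temperature. This probe gave 14.70, 14.67 and 14.81 in H2Av RNAi and 13.88, 14.05 and 13.86 in lacZ RNAi at 25 °C, and then 14.14, 14.14 and 14.33 against 13.83, 13.63 and 13.71 at 30 °C. The groups did not overlap at either temperature (30 °C: 0.48, limma adjusted p = 0.035). The lead probe was also higher in H2Av RNAi at 30 °C, with 16.25, 16.24 and 16.23 against 15.93, 15.89 and 15.86, a change of 0.35 that did not pass.

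Most paralogues were not well above background in these cells. Of the 16 genes, 4 passed the filter (Prosalpha1R, Prosbeta2R2, Rpt3R and Rpt6R), and 8 of the other 12 were well above background on no array, with the rest above it on at most 2. Rpt6R, the paralogue of the ATPase gene Rpt6, was among the genes with the largest temperature differences. It gave 12.76, 12.98 and 13.59 at 14 °C, 12.29, 12.53 and 12.93 at 25 °C, and then 11.29, 11.88 and 12.09 at 30 °C in H2Av RNAi. In lacZ RNAi it gave 13.69, 13.51 and 13.95 at 14 °C, 13.10, 12.80 and 12.98 at 25 °C, and then 11.20, 12.21 and 12.17 at 30 °C. The 14 and 30 °C arrays did not overlap in either RNAi group. Rpt6R was 2.56-fold higher at 14 than at 30 °C in H2Av RNAi (log2 change 1.36 ± 0.30 SE, limma adjusted p = 0.00276) and 3.62-fold higher in lacZ RNAi (1.86 ± 0.30, limma adjusted p = 0.000342). Its second probe gave 0.98 (limma adjusted p = 0.0123) and 1.39 (limma adjusted p = 0.00156). The interaction did not pass (-0.50, limma adjusted p = 0.87).

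Prosalpha1R was higher at 14 than at 30 °C in H2Av RNAi (0.33, limma adjusted p = 0.0409), and in lacZ RNAi the change was 0.26 (limma adjusted p = 0.12). The first call was lost in 11 of the 18 fits that left out 1 array. Whether its probe also binds transcripts of Prosalpha1 was not tested. Rpt3R changed by 0.93 and 0.45 and Prosbeta2R2 by 0.19 and 0.64 without passing. None of the 4 passed between H2Av RNAi and lacZ RNAi at any temperature, where the widest change was that of Rpt3R at 14 °C (1.26, limma adjusted p = 0.112), with 9.52, 10.72 and 10.86 in H2Av RNAi against 8.68, 9.22 and 9.43 in lacZ RNAi. These arrays did not overlap, and the H2Av RNAi arrays were widely spread.

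Genes that supply or serve the proteasome were examined from fixed lists. Of the 4 ubiquitin genes, the polyubiquitin genes Ubi-p63E and Ubi-p5E were higher at 14 than at 30 °C in both RNAi groups (0.52 and 0.48 in H2Av RNAi, 0.43 and 0.54 in lacZ RNAi). Ubi-p63E gave 16.53, 16.45 and 16.52 at 14 °C against 15.98, 15.95 and 15.99 at 30 °C in H2Av RNAi, without overlap. The ubiquitin fusion genes RpL40 and RpS27A did not pass. Ubi-p5E was also higher in H2Av RNAi than in lacZ RNAi at 25 °C (0.74, limma adjusted p = 0.00417). Its lowest array there was lacZ RNAi replicate 1 (13.76), and without it the change was 0.55 (limma adjusted p = 0.0104).

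Of the 7 genes for ubiquitin activation, delivery to the proteasome and unfolding, Ufd1, which encodes a cofactor of the unfoldase TER94, was the only one to pass between 14 and 30 °C, with 1.59 in H2Av RNAi (limma adjusted p = 0.000362) and 0.79 in lacZ RNAi (limma adjusted p = 0.0358). Its arrays gave 11.81, 11.43 and 11.43 at 14 °C against 9.79, 9.82 and 10.28 at 30 °C in H2Av RNAi, and 11.56, 11.31 and 11.46 against 10.91, 10.71 and 10.33 in lacZ RNAi. At 25 °C the shuttle gene Ubqn was higher in H2Av RNAi (0.72) and the TER94 cofactor gene p47 was lower (-0.47). Without lacZ RNAi replicate 1 Ubqn still passed (0.51) and p47 did not (-0.32, limma adjusted p = 0.149). Uba1, Rad23, TER94 and Npl4 passed in no comparison.

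Of 6 genes of proteasome partners, Pomp, the gene of a chaperone that assembles the core, was lower at 30 than at 25 °C in both RNAi groups (-0.83 in H2Av RNAi and -1.10 in lacZ RNAi). In H2Av RNAi Pomp was the 1 partner gene higher at 14 than at 30 °C (group means 9.68 and 9.15). It was also lower at 14 than at 25 °C in lacZ RNAi (-0.81), where its 3 arrays at 25 °C (10.52, 9.90 and 10.53) lay above those at 14 °C (9.46, 9.57 and 9.48) and 30 °C (at most 9.37). Sem1, the gene of a small lid subunit, was lower in H2Av RNAi than in lacZ RNAi at 25 °C (-1.01, limma adjusted p = 0.0081), with 15.23, 15.18 and 15.19 against 16.96, 15.81 and 15.85. Its groups did not overlap, and without lacZ RNAi replicate 1 the change was -0.63 (limma adjusted p = 0.0101). The Pomp calls in lacZ RNAi also held without that array (-0.99 and -0.71). REG, PI31, Uch-L5 and Usp14 passed in no comparison.

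The last list held 5 genes linked to transcriptional control of the proteasome: cnc, a bZIP factor related to the mammalian Nrf factors, its partner maf-S, its inhibitor Keap1, and rngo and Pngl, whose mammalian counterparts process an Nrf factor. At 25 °C cnc (1.47, limma adjusted p = 0.00362) and rngo (1.08, limma adjusted p = 0.00238) were higher and maf-S (-0.87) and Pngl (-0.65) were lower in H2Av RNAi than in lacZ RNAi. All 4 also passed without lacZ RNAi replicate 1 (1.17, 0.96, -1.02 and -0.47). At 30 °C cnc was again higher (1.00, limma adjusted p = 0.0465). It gave 13.24, 13.32 and 12.76 at 25 °C and 13.17, 13.30 and 12.99 at 30 °C in H2Av RNAi, against 11.03, 12.04 and 11.84 and 12.36, 11.50 and 12.62 in lacZ RNAi. At these 2 temperatures the H2Av RNAi arrays of cnc lay above all lacZ RNAi arrays of the same temperature. At 14 °C they overlapped, with 13.22, 13.18 and 12.74 against 12.52, 13.05 and 12.87. Keap1 was higher at 14 than at 30 °C in H2Av RNAi (1.54, limma adjusted p = 7.16e-05) and in lacZ RNAi (1.35, limma adjusted p = 0.00026). In lacZ RNAi maf-S (-0.78, limma adjusted p = 0.0294) and Pngl (-0.51, limma adjusted p = 0.0259) were lower at 14 than at 30 °C, and in H2Av RNAi they did not pass.

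For 14 of the 32 subunit genes no comparison passed: Prosalpha1, Prosalpha2, Prosalpha4, Prosalpha6, Prosbeta1, Prosbeta6, Rpn2, Rpn3, Rpn5, Rpn6, Rpn7, Rpn10, Rpn11 and Rpt3, read from their lead probes. The 95% intervals of single comparisons had a median half-width of 0.37 log2 units over the 32 genes, so that small changes could have gone undetected.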

How the data were processed

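The deposited files hold scanner intensities (linear), extracted by the authors with Agilent's Feature Extraction (10.7.3.1 per the file headers). Its processed signal, background-subtracted within the array, was used here after log2 transformation and quantile normalization over 18 arrays (limma 3.58.1, R 4.3.3), without spots bearing an outlier flag, and a probe's repeated spots were summarized by their median. The deposited flags for spots above background are scores of 0 or 1. A deposited matrix of log2 values, quantile-normalized by the authors, served as an alternative, as did background-corrected median intensities. Probes above background on at least 2 of 3 arrays of a group were kept (21775). Group means were fitted over all arrays (lmFit, eBayes, two-sided), with Benjamini-Hochberg adjustment over all 21775. The number of arrays limits the precision.

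Symbols came from RefSeq (Release 6) through systematic names. The array's design is older, so no positions are given. Members, gene lists, tests and the genes named were chosen with earlier results of these data known. All genes past a test were named if at most 8, otherwise the 4 largest changes. Marker lists were those of haemocytes, germ cells (7 of 7 genes passed the filter), spermatocytes and spermatids, neurons (3 of 3) and muscle (2 of 3).

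Same-numbered arrays deviated together (r above 0.1 in each of 3 pairs) between all temperatures of H2Av RNAi and between 14 and 30 °C of lacZ RNAi. Their numbers also follow their order on the slide, and a replicate block was fitted as an alternative. The scripts were tested on simulated data. The number of value columns left unused was 0.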

Additional observations from a re-analysis of the deposited data

How the results depend on the processing

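Read from lead probes or gene means, the 14 minus 30 °C calls, all higher at 14 °C, kept their direction under the settings tried. Over the 47 calls of members, 420 of 517 values under other settings stayed past the threshold, 97 missed it and 0 changed sign. A dimmer probe in place of the lead probe was not among these settings. The 2-fold minimum was among them and cannot change a sign. Further probes of some called genes went the other way, such as that of Rpt1 between 14 and 30 °C. With 1 array left out, 700 of 846 stayed, 146 missed it and 0 changed sign. With the 75th percentile of each array as its scale, which moved the median of all probes by 0.43 in H2Av RNAi minus lacZ RNAi at 25 °C, 1 subunit gene passed there, higher and not lower, as did 1 at 30 °C, and 17 were higher at 14 than at 30 °C in lacZ RNAi and 8 lower at 30 than at 25 °C in H2Av RNAi. For H2Av RNAi against lacZ RNAi at 30 °C, 1 gene passed with normexp correction, without a filter, with a filter on all arrays and in the deposited matrix. Array quality weights gave 7 genes at 25 °C (4 higher, 3 lower), 9 at 30 °C, 17 for 30 against 25 °C in lacZ RNAi, 14 there for 14 against 30 °C, and 19 for 30 against 25 °C in H2Av RNAi. The mean over the probes of a gene gave 3 in the last comparison. The dimmer probe in place of the lead probe, an alternative chosen after seeing the data, gave 1 higher at 30 °C, 5 for 30 against 25 °C in lacZ RNAi and 3 for the same in H2Av RNAi. Fits on the compared groups alone gave 0 for H2Av RNAi against lacZ RNAi at 25 °C, 0 for 14 and for 30 against 25 °C in lacZ RNAi, 4 for 14 against 30 °C in lacZ RNAi and 9 for 30 against 25 °C in H2Av RNAi. A 2-fold minimum left 0 at 25 °C, 1, 0 and 1 in lacZ RNAi (14 against 25, 30 against 25 and 14 against 30 °C) and 0, 1 and 2 in H2Av RNAi. The cause of these shifts was not tested, except that fewer residual degrees of freedom and a stricter minimum are part of the last 2 settings. Apart from the 2-fold minimum, the counts stand without the shares of all probes called under the same setting. They do not show whether a setting called more subunit genes or more probes in general.

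With 1 array left out, counts ranged from 0 to 0 (14 °C), 0 to 7 (25 °C) and 0 to 2 (30 °C) for H2Av RNAi against lacZ RNAi. They ranged from 1 to 2 (14 against 25 °C), 2 to 11 (30 against 25 °C) and 6 to 10 (14 against 30 °C) in lacZ RNAi, from 0 to 2, 3 to 10 and 7 to 15 in H2Av RNAi, and from 0 to 0 for the interaction. The 7 in H2Av RNAi came without 14 °C replicate 3 or 30 °C replicate 2. With the replicate block the 10 counts were 0, 4, 0, 2, 9, 7, 1, 5, 13 and 0, in the order of this paragraph. A replicate block nested in the RNAi groups was added after seeing the data. With it, 14 against 25 °C in H2Av RNAi had 0 in place of 1, and the block changed no other count by more than 1.5 times.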
